A study of Mus musculus with 13 samples.

Results

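Transcripts of 10 sialyltransferase genes were followed in mature CD4 thymocytes that had been selected with or without cathepsin L in the thymic epithelium. The genes St3gal1, St3gal2, St3gal3, St3gal4, St3gal5, St3gal6, St6gal1, St8sia1, St8sia4 and St8sia6 were taken by name from the 35906 genes with a transcript in the tables, and the values of their 57 transcripts were summed. All 10 passed the filter on low counts. The 10 other mouse sialyltransferase genes are given beside them where they were measured.

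RNA was sequenced from sorted CD69-MHCI+ (M2) CD4SP thymocytes, the most mature CD4 single-positive stage in the thymus, with 1 library per mouse. Every mouse carried the transgenic T cell receptor of clone Lm54, which recognises the listeriolysin O (LLO) peptide on I-Ab, on a Rag1-/- background. In the CtslΔTEC mice Foxn1-cre, which is active in thymic epithelium, deleted a floxed Ctsl gene there and not in the sequenced thymocytes. All mice were C57BL/6J. The control mice are Ctsl fl/fl (WT) in the labels and are written Ctsl+/+ here, as in the study. Unstimulated cells came from 5 CtslΔTEC and 4 Ctsl+/+ mice. Cells cultured for 4 h with plate-bound LLO:I-Ab monomer at 1 µg/ml and soluble anti-CD28 at 250 ng/ml came from 2 CtslΔTEC and 2 Ctsl+/+ mice. All cells therefore bore the same receptor, a single clone, and the labels give neither age nor sex. The tables and labels allow a comparison of the genotypes in each condition and of the response to stimulation in each genotype.

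Sialyltransferases are Golgi enzymes that move sialic acid from CMP-sialic acid to the ends of glycans on glycoproteins and glycolipids. The ST3GAL enzymes and ST6GAL1 add it to galactose in different linkages, the ST6GALNAC enzymes add it to N-acetylgalactosamine, and the ST8SIA enzymes add it to a sialic acid that is already in place. In the thymus, sialic acid on O-glycans increases as cells mature, which is why mature thymocytes lose the binding of peanut agglutinin that marks the cortex.

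The depth of the 9 unstimulated libraries lay between 25692380 and 39127833 estimated counts. The 4 stimulated ones had 8085463 to 27184520, and 3 of them were shallower than every unstimulated library. Cd4 lay between 327 and 604 TPM (length-corrected transcript abundance, scaled to the same total in every library) in all groups, and Foxn1, which marks thymic epithelium, was at or below 0.0338 TPM. Of 9 marker genes of CD4+CD8+ double-positive (DP) thymocytes, 8 were tested in unstimulated cells and 6 were higher in the CtslΔTEC group, where their summed level was 275 to 348 TPM against 110 to 141 TPM. In stimulated cells 3 of 9 were higher, and the sums were 82.0 and 87.7 TPM against 45.9 and 48.7 TPM. Of 8 markers of mature thymocytes, 3 were higher and 5 lower in unstimulated CtslΔTEC cells, and their sum was 5457 to 6150 TPM against 4996 to 5480 TPM. Of 7 semimature markers, 1 was higher and 1 lower, and their sum was 382 to 521 TPM against 474 to 736 TPM. Of 5 tested CD8 lineage markers, 2 were higher and 2 lower. The sum of that list, which shares Cd8a and Cd8b1 with the DP markers, was 179 to 222 TPM against 71.0 to 89.5 TPM. Summed B cell markers reached 2.25 TPM, myeloid markers 44.9 to 75.6 TPM, thymic epithelial markers at most 28.0 TPM and erythroid markers 9.67 to 771 TPM. The summed level of 4 Y-linked genes exceeded 100 TPM in all 5 unstimulated CtslΔTEC mice and in 1 of 4 Ctsl+/+ mice (mouse 3), and in 1 of 2 mice of each stimulated group. The deposited file names carry 3 dates. The first date holds CtslΔTEC mice 1 and 3 and Ctsl+/+ mouse 4, the second the other unstimulated mice, and the last all stimulated cells, so stimulation, culture and date cannot be told apart. In bulk RNA, fewer cells of a type and less RNA per cell cannot be told apart either.

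Levels of different genes were compared in TPM, which is corrected for transcript length. In unstimulated Ctsl+/+ cells the members fell into a high, a middle and a low tier with no overlap between the mice of neighbouring tiers. St6gal1, at 129 ± 16.5 TPM (SD, n = 4), and St3gal1, at 110 ± 8.83 TPM, were the most abundant and overlapped each other. The middle tier ran from St3gal4 (43.0 ± 3.79 TPM) through St8sia1 (40.7 ± 5.35), St8sia4 (38.9 ± 8.75) and St3gal6 (27.3 ± 5.95) to St8sia6 (24.3 ± 7.15), and each gene overlapped its neighbour in this order. St3gal2 (7.07 ± 0.234 TPM), St3gal5 (6.79 ± 0.885) and St3gal3 (6.21 ± 0.290) formed the low tier and also overlapped. The TPM of St3gal4 leans on a short transcript of 372 bases, St3gal4-209, which took 43.0% to 56.2% of the gene's TPM in these mice from 57 to 72 estimated counts. The longer St3gal4-201 alone lay at 16.0 to 19.1 TPM. In unstimulated CtslΔTEC cells St6gal1 (120 ± 7.21 TPM, n = 5) and St3gal1 (96.0 ± 11.0) again led, whereas St3gal5 (0.819 ± 0.101) came last and lay below St3gal3 in every mouse. In stimulated Ctsl+/+ cells St6gal1 (74.6 ± 22.0 TPM, n = 2), St3gal4 (74.1 ± 11.2) and St3gal1 (59.5 ± 18.7) had the highest values and overlapped from neighbour to neighbour. The place of St3gal4 rests on St3gal4-209, which took 43.4% and 64.8% of its TPM on 24 and 143 counts. St3gal4-201 alone measured 30.2 and 26.5 TPM, which overlapped St3gal6 (22.2 to 28.2 TPM) and lay below St3gal1 (46.2 to 72.7 TPM). St3gal5 (14.1 ± 7.90) overlapped St8sia1 (13.2 ± 1.36), and St3gal3 (2.83 ± 1.10) came last and overlapped St8sia6. In stimulated CtslΔTEC cells St3gal1 (63.3 ± 11.3 TPM, n = 2), St6gal1 (52.9 ± 2.75) and St3gal4 (47.0 ± 3.81) had the highest values, again with St3gal4-201 alone at 12.5 and 15.6 TPM, and St3gal5 (1.76 ± 0.305) and St3gal3 (1.58 ± 0.534) came last and overlapped.

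**Figure D1:**
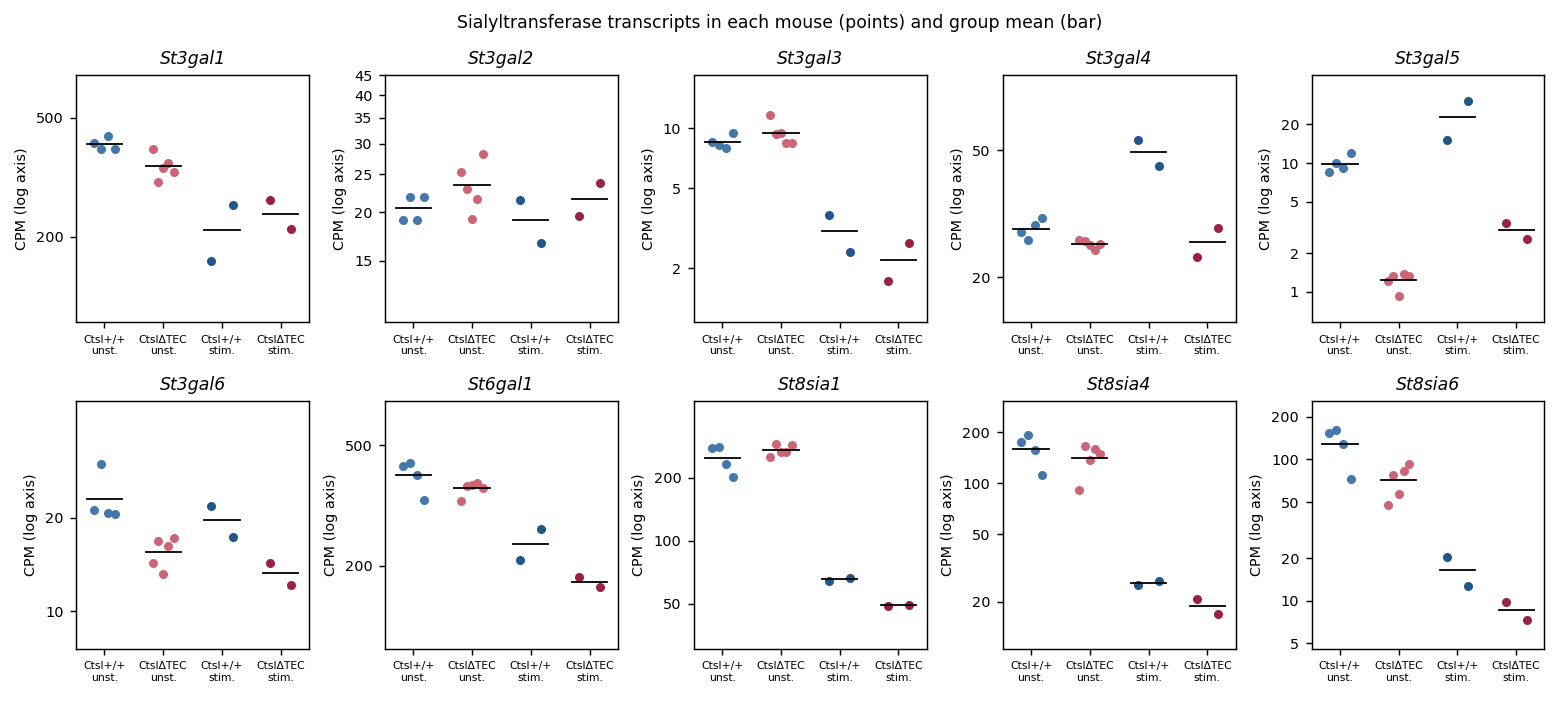
Each panel plots 1 gene, with normalised counts scaled to library size (CPM) on a log axis against the 4 groups, points standing for mice and bars for group means. St3gal5 lies between 0.931 and 1.38 CPM in the 5 unstimulated CtslΔTEC mice and between 8.47 and 11.9 CPM in the 4 Ctsl+/+ mice, and the 3 St8sia genes lie lower in all stimulated mice than in any unstimulated mouse.

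In unstimulated cells, 4 of the 10 members were lower in CtslΔTEC mice and none was higher, against 14.8% of the 13152 genes tested that were called in either direction (edgeR quasi-likelihood test, adjusted p under 0.1). Of all called genes 43.4% were higher, or 56.8% when library totals replaced the normalisation factors, under which all 10 members kept their direction. The 4 lower members were St3gal5, St3gal6, St8sia6 and St3gal1. Of the 5 other sialyltransferases tested, none was called in either condition. The members were chosen with earlier results of these data known, so the counts of called members here and below only describe them. The median log2 fold change of CtslΔTEC over Ctsl+/+ was -0.17 over the members and 0.01 over all genes. The genotypes did not overlap in CPM for 3 of the 10 members, St3gal1, St3gal5 and St3gal6, against 13.9% of all genes.

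St3gal5 encodes GM3 synthase, which adds the first sialic acid to lactosylceramide and so opens the ganglioside series. The gene lies on the forward strand of chromosome 6 (chr6:72097592-72154571 in GRCm38). Its promoter is shown because this gene had the largest genotype difference among the members. The RefSeq window (GRCm38.p6, chr6:72097358-72097657, + strand) runs from 250 bases before to 50 bases after the start, and capitals mark matches to GGGCGG or its reverse complement CCGCCC, the core of a GC box:
St3gal5: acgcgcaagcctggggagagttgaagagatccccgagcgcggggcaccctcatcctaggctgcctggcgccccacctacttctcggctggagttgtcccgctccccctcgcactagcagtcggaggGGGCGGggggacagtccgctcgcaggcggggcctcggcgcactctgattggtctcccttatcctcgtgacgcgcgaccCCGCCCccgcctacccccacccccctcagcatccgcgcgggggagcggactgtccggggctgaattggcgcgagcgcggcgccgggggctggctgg
This window is 72.7% G or C, and 5.7% of all 32851 promoter windows hold more. A promoter was listed for 8 of the 10 members, all but St3gal1 and St3gal2, and each of the 8 had GGGCGG on either strand in a window, 8 of 11 windows in all, whereas 35.7% of all windows hold it. None of the 11 windows held TATAAA (13.6% of all windows), TGACTCA (5.2%), GTAAACA (3.6%), CACGTG (7.2%), CAGGTG (20.2%), CCGGAAGT (3.9%) or GCGTGGGCG (0.6%). TGTGGT was found in 2 of the 11 windows (16.8% of all), GGAAAA in 2 (23.4%) and CACACCC in 1 (8.0%). The letters were searched on both strands, no motif is contained in another, and a match or its absence says nothing of whether a factor binds.

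St3gal5 measured 1.21, 1.34, 0.931, 1.38 and 1.32 CPM in CtslΔTEC mice 1 to 5 and 8.47, 10.1, 9.18 and 11.9 CPM in Ctsl+/+ mice 1 to 4. Every CtslΔTEC mouse lay far below every Ctsl+/+ mouse, and the mice within a genotype differed little. The gene was 7.95-fold lower in CtslΔTEC cells (log2 fold change -2.99, SE 0.15, adjusted p = 5.36e-07). These values rest on 25 to 53 estimated counts per CtslΔTEC library and 247 to 430 per Ctsl+/+ library. Transcript St3gal5-201 held 75.4% to 100% of the gene's TPM in the first group and 82.7% to 91.0% in the second.

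St3gal6 (chr16:58468125-58524243) encodes an enzyme of N-glycans and glycolipids that contributes to selectin ligands. It measured 14.3, 16.9, 13.2, 16.3 and 17.2 CPM in CtslΔTEC mice 1 to 5 and 21.2, 29.7, 20.8 and 20.6 CPM in Ctsl+/+ mice 1 to 4. The groups did not overlap, and Ctsl+/+ mouse 2 stood above the other 3 of its group. CtslΔTEC cells had 1.48-fold less of it (log2 fold change -0.56, SE 0.13, adjusted p = 0.0137), and without Ctsl+/+ mouse 2 it was -0.42 (adjusted p = 0.0311).

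St8sia6 (chr2:13651021-13794064) encodes the enzyme that adds a sialic acid to sialylated O-glycans and so makes ligands of the inhibitory receptor Siglec-E. It measured 47.5, 77.7, 56.9, 82.5 and 92.3 CPM in CtslΔTEC mice 1 to 5 and 154, 163, 128 and 73.1 CPM in Ctsl+/+ mice 1 to 4. The groups overlapped through Ctsl+/+ mouse 4, and the lowest mice of each genotype were those of the first date. Within each date every CtslΔTEC mouse lay below every Ctsl+/+ mouse. The difference was 1.81-fold (log2 fold change -0.86, SE 0.23, adjusted p = 0.0374). It was -0.72 with date as a factor (adjusted p = 0.000533) and -0.82 in the mice of the second date alone (adjusted p = 0.000995), and the call was lost without Ctsl+/+ mouse 1 (-0.76, adjusted p = 0.103) or mouse 2 (-0.73, adjusted p = 0.11).

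St3gal1 (chr15:67102875-67176830) encodes the enzyme that caps core 1 O-glycans with sialic acid on proteins such as CD43 and CD8, and it is the sialyltransferase behind the loss of peanut agglutinin binding. It measured 393, 306, 339, 354 and 330 CPM in CtslΔTEC mice 1 to 5 and 413, 394, 436 and 394 CPM in Ctsl+/+ mice 1 to 4. The groups did not overlap, although CtslΔTEC mouse 1 and the lowest Ctsl+/+ mice were nearly level. The difference was 1.19-fold (log2 fold change -0.25, SE 0.08, adjusted p = 0.0615). The call was lost when library totals replaced the normalisation factors (adjusted p = 0.129), in the model of all 13 libraries (0.215) and without any of 6 mice, CtslΔTEC mice 2 to 5 and Ctsl+/+ mice 1 and 3 (adjusted p 0.105 to 0.161).

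The remaining 6 members overlapped between the genotypes and were not called in unstimulated cells. St6gal1, the enzyme that sialylates N-glycans and makes CD22 ligands, averaged 360 CPM in CtslΔTEC and 398 CPM in Ctsl+/+ mice (log2 fold change -0.14, SE 0.08, adjusted p = 0.337), and without Ctsl+/+ mouse 4, its lowest control, it passed (-0.22, adjusted p = 0.0627), as it did in the mice of the second date alone (-0.19, adjusted p = 0.0934). St8sia1, the GD3 synthase, averaged 273 and 248 CPM (0.14, SE 0.10, adjusted p = 0.436). St8sia4, which builds polysialic acid, averaged 141 and 159 CPM (-0.17, SE 0.18, adjusted p = 0.618). St3gal4, which acts on N-glycans and selectin ligands, ranged from 24.4 to 26.2 CPM in CtslΔTEC and from 26.1 to 30.6 CPM in Ctsl+/+ mice (-0.16, SE 0.07, adjusted p = 0.183). St3gal2, which sialylates O-glycans and gangliosides, ranged from 19.2 to 28.3 and from 19.0 to 21.9 CPM (0.20, SE 0.11, adjusted p = 0.309). St3gal3, which acts on N-glycans, ranged from 8.42 to 11.6 and from 7.99 to 9.44 CPM (0.15, SE 0.12, adjusted p = 0.491).

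Y-linked transcripts and genotype were unevenly mixed in the unstimulated mice. With the level of Y-linked transcripts as a covariate, 1 of the 10 members was still called, St3gal5 (log2 fold change -2.86, adjusted p = 0.000161), while the called genes of all 13152 tested went from 1943 to 430. St3gal6 (-0.41, adjusted p = 0.49), St8sia6 (-0.88, adjusted p = 0.391) and St3gal1 (-0.33, adjusted p = 0.307) kept their direction without passing. In Ctsl+/+ mouse 3, the only Ctsl+/+ mouse of this group with Y-linked transcripts above 100 TPM, St3gal5 (9.18 CPM), St3gal6 (20.8 CPM), St8sia6 (128 CPM) and St3gal1 (436 CPM) each lay above all 5 CtslΔTEC mice. The higher DP marker level of the CtslΔTEC mice moved with these differences, and its part in them was not tested. The same holds for the DP markers and the differences in stimulated cells below.

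Stimulated cells were compared with 2 mice per genotype in a model of all 13 libraries. Again 4 of the 10 members were lower in CtslΔTEC cells and none was higher, against 13.3% of the 14241 genes tested that were called in either direction. Most called genes were lower too. Of them 20.8% were higher, or 30.3% with upper-quartile factors and 36.6% with at least 10 counts in every library. The 4 members were St3gal5, St3gal4, St6gal1 and St8sia1, so that St3gal5 was the member called in both conditions. The median log2 fold change was -0.44 over the members and -0.05 over all genes.

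St3gal5 measured 3.43 and 2.59 CPM in stimulated CtslΔTEC mice 6 and 7 and 15.2 and 30.4 CPM in stimulated Ctsl+/+ mice 5 and 6. The Ctsl+/+ mice differed from each other, yet both lay well above the CtslΔTEC mice. The gene was 7.75-fold lower in CtslΔTEC cells (log2 fold change -2.95, SE 0.31, adjusted p = 8.8e-05). Without Ctsl+/+ mouse 6 the value was -2.35 (adjusted p = 0.000386). The interaction, which tests whether the genotype difference changed with stimulation, was not called (0.04, SE 0.34, adjusted p = 0.988) and ranged from -0.36 to 0.64 when a mouse was left out. These values rest on 38 and 41 estimated counts against 115 and 782.

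St3gal4 (chr9:35046576-35119268) measured 23.1 and 28.5 CPM in stimulated CtslΔTEC mice and 53.9 and 44.7 CPM in stimulated Ctsl+/+ mice, with no overlap. This was a 1.90-fold difference (log2 fold change -0.92, SE 0.13, adjusted p = 0.000517). It was larger than in unstimulated cells, with an interaction of -0.77 (SE 0.15, adjusted p = 0.0157). St3gal4 was 1 of 2 members with a called interaction, against 6.01% of all genes tested, and 18.8% of the called interactions were above 0. St8sia1 (chr6:142821545-142964452) was the other. It measured 48.9 and 49.6 CPM against 64.6 and 66.8 CPM in stimulated cells (-0.42, SE 0.14, adjusted p = 0.085), and the interaction was -0.55 (SE 0.17, adjusted p = 0.0934). Both calls of St8sia1 lay near the threshold. The difference in stimulated cells was lost without any 1 of the 4 stimulated mice (adjusted p 0.185 to 0.274), and so was the interaction (0.168 to 0.265), which was also lost without CtslΔTEC mouse 2, 3, 4 or 5 or Ctsl+/+ mouse 3 (0.127 to 0.188). Both calls were lost too with upper-quartile factors (0.145 and 0.130), at least 10 counts in every library (0.130 and 0.127), a transcript length offset (0.199 and 0.126) or the Y-linked covariate (0.103 and 0.157), and the first also with the 4 stimulated libraries fitted alone (0.117).

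St6gal1 (chr16:23224740-23360350) measured 184 and 170 CPM in stimulated CtslΔTEC mice and 208 and 264 CPM in stimulated Ctsl+/+ mice, with no overlap (-0.42, SE 0.14, adjusted p = 0.0761). This call was lost without CtslΔTEC mouse 6 (adjusted p = 0.181), CtslΔTEC mouse 7 (0.275) or Ctsl+/+ mouse 6 (0.359), and also with upper-quartile factors (0.128), with at least 10 counts in every library (0.124) and with the 4 stimulated libraries fitted alone (0.188). St3gal6 kept a log2 fold change close to that of unstimulated cells without passing (-0.55, SE 0.20, adjusted p = 0.116), at 14.4 and 12.1 CPM against 21.8 and 17.4 CPM, and was called without Ctsl+/+ mouse 6 (-0.73, adjusted p = 0.0819), by DESeq2 (-0.53, adjusted p = 0.0948) and with a transcript length offset (adjusted p = 0.0264). St8sia6, at 9.84 and 7.33 CPM against 20.5 and 12.6 CPM, did not pass either (-0.91, SE 0.41, adjusted p = 0.205), but was called with the 4 stimulated libraries fitted alone (-0.87, adjusted p = 0.0906). St3gal1 had a value of 0.18 (SE 0.17, adjusted p = 0.589), with 266 and 213 CPM in CtslΔTEC mice against 166 and 255 CPM. Without Ctsl+/+ mouse 6 it was called higher (0.52, adjusted p = 0.0556), as was its interaction (0.77, adjusted p = 0.0277). St3gal2, St3gal3 and St8sia4 were not called, with log2 fold changes of 0.21, -0.38 and -0.45.

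**Figure D2:**
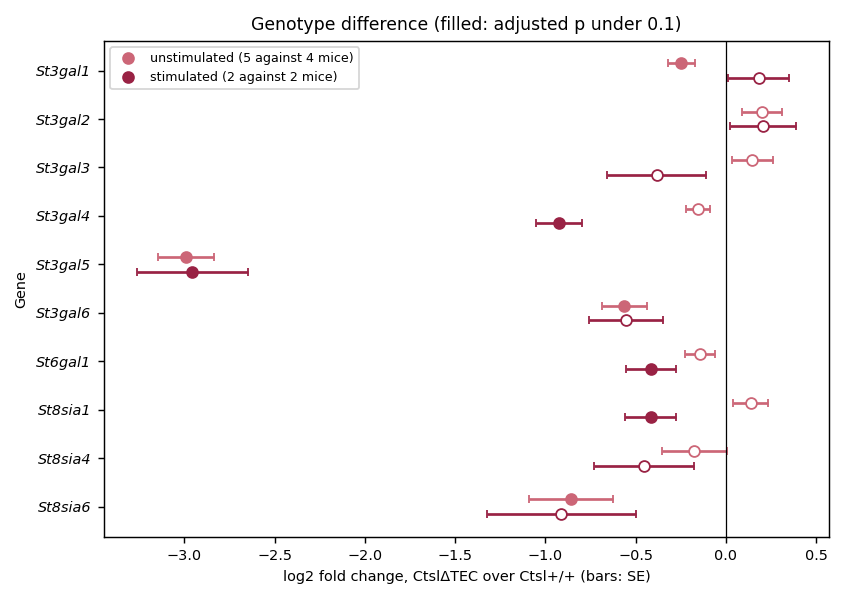
The log2 fold change of CtslΔTEC over Ctsl+/+ is plotted for each of the 10 genes, with bars for the SE, in unstimulated (5 against 4 mice) and stimulated cells (2 against 2), and filled points mark an adjusted p under 0.1. St3gal5 stands apart at -2.99 and -2.95, and St3gal4 moves from -0.16 to -0.92.

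The response to stimulation was large across the transcriptome, with 67.7% of 14241 genes called in Ctsl+/+ cells and 71.2% in CtslΔTEC cells, of which 48.6% and 46.3% were higher. All 11 activation genes examined were higher in both genotypes, which checks the label of the stimulated libraries. In Ctsl+/+ cells 2 members rose and 6 fell, with a median log2 change of -0.85 against 0.01 over all genes. In CtslΔTEC cells 1 member rose, 6 fell and 3 were not called.

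By the log2 change of their counts, the 3 members that add sialic acid to sialic acid fell most. St8sia6 fell from a range of 73.1 to 163 CPM to 20.5 and 12.6 CPM in Ctsl+/+ cells (log2 change -3.02, SE 0.37, adjusted p = 3.78e-06) and from 47.5 to 92.3 CPM to 9.84 and 7.33 CPM in CtslΔTEC cells (-3.07, SE 0.37, adjusted p = 3.16e-06), the latter -2.22 with a transcript length offset. St8sia4 fell from 112 to 192 CPM to 25.0 and 26.4 CPM in Ctsl+/+ cells (-2.62, SE 0.26, adjusted p = 3.72e-07) and from 91.3 to 166 CPM to 20.9 and 16.9 CPM in CtslΔTEC cells (-2.90, SE 0.26, adjusted p = 1.05e-07). St8sia1 fell from 201 to 281 CPM to 64.6 and 66.8 CPM in Ctsl+/+ cells (-1.92, SE 0.13, adjusted p = 7.54e-09) and from 252 to 292 CPM to 48.9 and 49.6 CPM in CtslΔTEC cells (-2.47, SE 0.13, adjusted p = 4.1e-10). For each of these genes the stimulated mice lay below all unstimulated mice of their genotype.

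Among the members that sialylate galactose, St3gal5 rose in both genotypes. It went from 8.47 to 11.9 CPM to 15.2 and 30.4 CPM in Ctsl+/+ cells, a log2 change of 1.22 (SE 0.23, adjusted p = 0.000229), which was 0.60 without Ctsl+/+ mouse 6 (adjusted p = 0.0542). In CtslΔTEC cells it went from 0.931 to 1.38 CPM to 3.43 and 2.59 CPM (1.26, SE 0.27, adjusted p = 0.00088). St3gal4 rose in Ctsl+/+ cells, from a range of 26.1 to 30.6 CPM to 53.9 and 44.7 CPM (0.79, SE 0.10, adjusted p = 1e-05), and had a value of 0.02 (SE 0.11, adjusted p = 0.858) in CtslΔTEC cells, a difference the interaction above tests. St3gal3 fell in both, by -1.56 (SE 0.23, adjusted p = 2.31e-05) and -2.09 (SE 0.23, adjusted p = 9.84e-07), to 1.72 to 3.71 CPM, where it rests on 19 to 62 estimated counts. St6gal1 fell by -0.75 (SE 0.12, adjusted p = 7.68e-05) and -1.02 (SE 0.12, adjusted p = 2.49e-06), and St3gal1 by -0.96 (SE 0.15, adjusted p = 6.22e-05) and -0.53 (SE 0.15, adjusted p = 0.00513). St3gal2 and St3gal6 were not called in either genotype, with log2 changes between -0.25 and -0.11, although St3gal6 was called lower with library totals in both (adjusted p = 0.0916 in Ctsl+/+ and 0.0559 in CtslΔTEC cells) and, in CtslΔTEC cells, with a transcript length offset (0.0630) or the Y-linked covariate (0.0878).

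**Figure D3:**
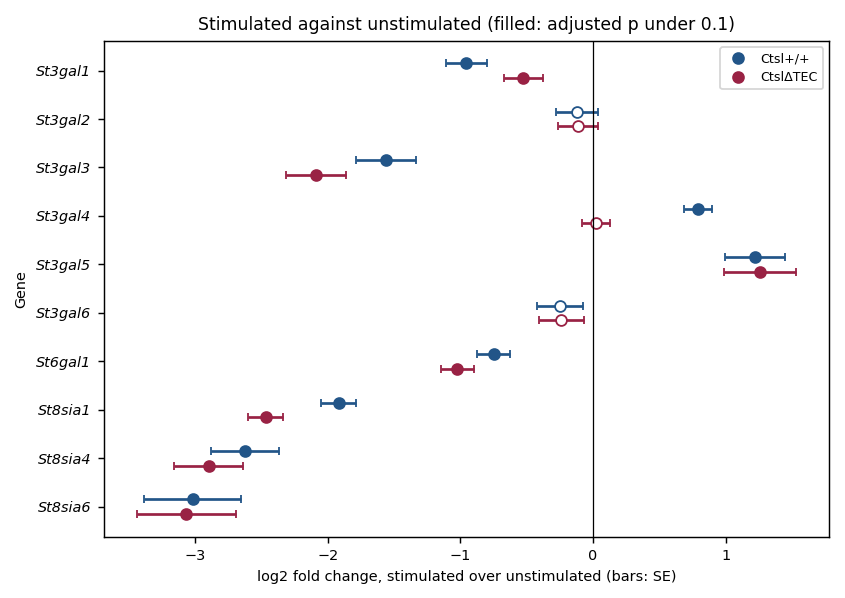
The log2 fold change of stimulated over unstimulated cells is plotted for each of the 10 genes in Ctsl+/+ and CtslΔTEC cells, with bars for the SE and filled points for an adjusted p under 0.1. St8sia6 is lowest, at -3.02 and -3.07, St3gal5 is highest, at 1.22 and 1.26, and St3gal4 is the gene whose filled point, at 0.79, stands beside an open one near 0.

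Of the 10 other mouse sialyltransferases, 5 passed the count filter. None was called between the genotypes in either condition. St6galnac4, which adds sialic acid to sialylated core 1 O-glycans, rose from 11.3 to 15.6 CPM over all unstimulated mice to 188 and 156 CPM in Ctsl+/+ (log2 change 3.64, SE 0.12) and 153 and 181 CPM in CtslΔTEC cells (3.68, SE 0.11). St6galnac6, which acts on glycolipids, rose from 0.990 to 1.79 CPM to 10.7 and 13.7 CPM (3.54, SE 0.24) and 7.94 and 11.9 CPM (2.96, SE 0.22). St6galnac3 was called lower after stimulation in CtslΔTEC cells (-2.49, SE 0.69, adjusted p = 0.00505) on 2 and 3 stimulated counts, and St6galnac2 was called higher there (1.50, SE 0.53, adjusted p = 0.0226) on 6 and 14 counts. St8sia3 was not called in any comparison, and St6gal2, St6galnac1, St6galnac5, St8sia2 and St8sia5 were under the count filter.

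The make-up of the sialyltransferase transcripts differed between the conditions. As a share of the summed TPM of all 20 genes, the ST8SIA genes took 19.9% to 26.4% in unstimulated mice and 5.91% to 6.71% in stimulated mice. The ST6GALNAC genes took 1.79% to 2.39% and then 19.8% to 31.0%. The ST3GAL genes took 42.3% to 49.6% and then 45.3% to 51.5%, and the ST6GAL genes 28.1% to 30.9% and then 17.6% to 22.8%. These shares are a description of transcript levels and were not tested.

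**Figure D4:**
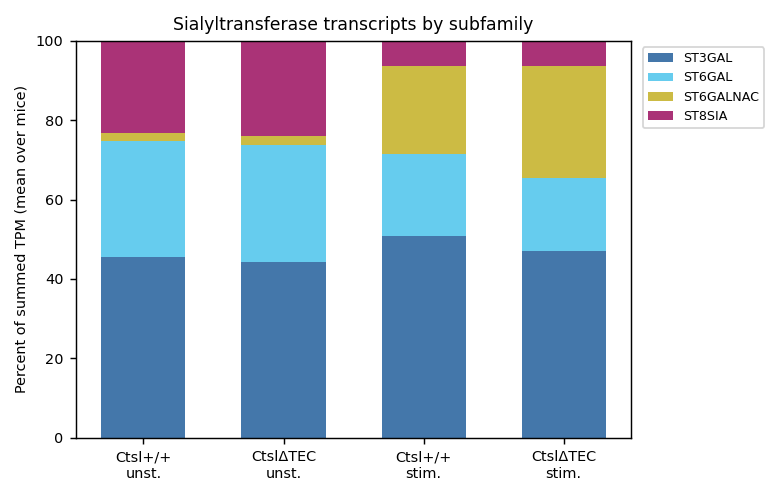
Stacked bars give the mean percent of the summed TPM of 20 sialyltransferase genes that each subfamily took in the 4 groups. The ST8SIA segment shrinks from 23.4% and 24.1% in unstimulated Ctsl+/+ and CtslΔTEC cells to 6.31% and 6.32% in stimulated cells, and the ST6GALNAC segment grows from 2.04% and 2.06% to 22.1% and 28.3%.

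Transcripts of 1 gene can start at different promoters or end in different products. The shares of a gene's TPM held by its transcripts are given as a description. For St3gal1, St8sia1 and St8sia4 the main transcript's share was lower in all 4 stimulated mice than in any unstimulated mouse. St6gal1, which overlapped, is shown because more than 1 start is listed for it. This gene is known to use several promoters whose transcripts share the coding exons. The windows around 2 of the 3 RefSeq starts listed for the gene, which lie 1281 bases apart on chromosome 16, are shown (RefSeq, GRCm38.p6, + strand, chr16:23224490-23224789 and chr16:23225771-23226070). Matches to GGGCGG or CCGCCC are in capitals. The transcript names written beside the windows were not checked against the starts of the transcripts themselves, so a change in share is not tied to a promoter here:
St6gal1-201 start: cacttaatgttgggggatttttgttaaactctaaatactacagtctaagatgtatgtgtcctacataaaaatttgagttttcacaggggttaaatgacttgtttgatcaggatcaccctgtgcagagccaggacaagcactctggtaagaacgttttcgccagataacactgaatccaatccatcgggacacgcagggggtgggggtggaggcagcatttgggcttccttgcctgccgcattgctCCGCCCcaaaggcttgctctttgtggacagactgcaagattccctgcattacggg
St6gal1-205 start: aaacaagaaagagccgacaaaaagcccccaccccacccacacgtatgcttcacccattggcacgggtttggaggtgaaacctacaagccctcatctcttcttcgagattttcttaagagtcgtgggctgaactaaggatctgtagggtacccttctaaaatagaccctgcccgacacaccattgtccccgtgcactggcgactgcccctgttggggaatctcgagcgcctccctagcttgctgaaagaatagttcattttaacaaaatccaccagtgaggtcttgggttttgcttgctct
The first window holds 1 such match and the second none, with 48.0% and 50.7% G or C against a median of 52.7% over all windows. St6gal1-201 took 44.4% to 60.4% of the gene's TPM in unstimulated mice, 37.9% and 45.9% in stimulated CtslΔTEC mice and 31.1% and 31.3% in stimulated Ctsl+/+ mice. St6gal1-205 took 35.2% to 51.6% in unstimulated mice, 51.1% and 58.7% in stimulated CtslΔTEC mice and 58.9% and 64.3% in stimulated Ctsl+/+ mice. All stimulated Ctsl+/+ values lay beyond the unstimulated range for both transcripts. For each transcript 1 of the 2 stimulated CtslΔTEC mice lay within that range.

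St3gal1-202 took 78.3% to 81.5% of the gene's TPM in unstimulated mice and 58.4% to 75.9% in stimulated mice, on at least 1001 estimated counts. St3gal1-203 took 14.8% to 19.6% and 18.1% to 36.0%. St8sia4-201 took 95.2% to 98.3% in unstimulated mice and 82.1% to 91.6% in stimulated mice. St8sia1-203, which the annotation classes as a target of nonsense-mediated decay, took 6.89% to 17.3% of the gene's TPM in unstimulated mice and 34.3% to 50.1% in stimulated mice. Its level lay between 4.85 and 5.81 TPM in stimulated mice, within the 2.91 to 7.92 TPM of unstimulated mice, on 65 to 189 and 125 to 449 estimated counts. The coding transcript St8sia1-201 lay at 27.6 to 41.7 TPM in unstimulated and 5.46 to 8.44 TPM in stimulated mice. St8sia6-201 took 82.1% to 100% and then 42.5% to 82.3%, and the rest went to St8sia6-202, a transcript without a coding sequence that had 2 to 11 counts in stimulated libraries. St3gal2-201 took 73.6% to 96.0% in unstimulated, 56.9% and 72.5% in stimulated CtslΔTEC and 87.7% and 91.4% in stimulated Ctsl+/+ mice. St3gal2-202 was listed at 0 in both stimulated Ctsl+/+ mice and took 22.2% and 33.5% in the stimulated CtslΔTEC mice, on 27 and 80 counts. The transcripts of the other members overlapped between unstimulated and stimulated mice. St3gal4-201 took 27.7% to 49.7% over all mice, St3gal6-201 27.0% to 54.7% and St3gal6-209 0% to 37.5%. St3gal3 was split between St3gal3-201 and St3gal3-203 in unstimulated mice, at 26.1% to 47.1% and 21.4% to 51.8%. Its shares in stimulated mice, St3gal3-204 and St3gal3-205 included, rest on at most 38 counts each. Shares of transcripts were estimated by kallisto from reads that transcripts have in common, and the differences were not tested.

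**Figure D5:**
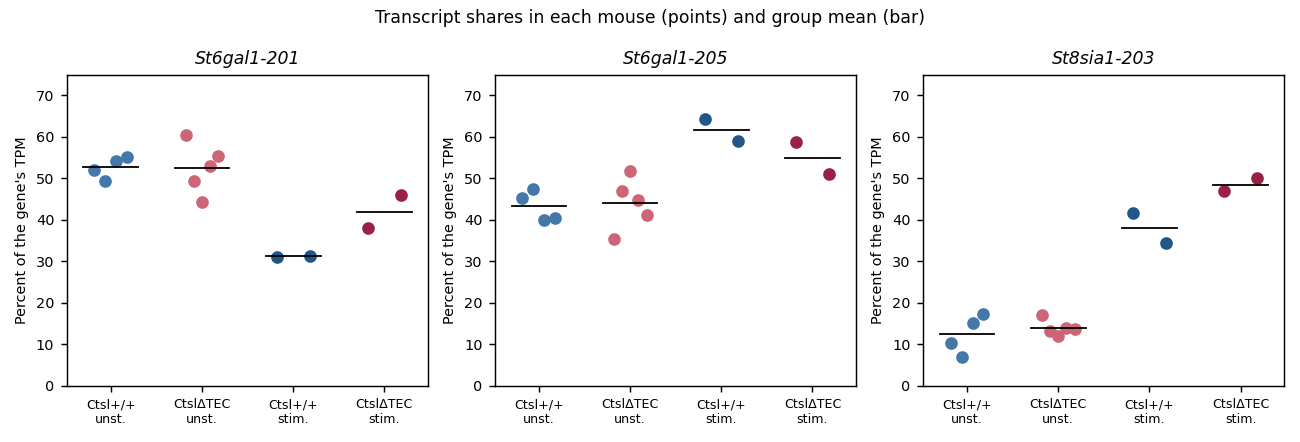
Each panel plots the percent of a gene's TPM taken by 1 transcript in the 4 groups, with points for mice and bars for means. St6gal1-201 has means of 52.7% and 52.5% in unstimulated Ctsl+/+ and CtslΔTEC cells and of 31.2% and 41.9% in stimulated cells, where those of St6gal1-205 are 61.6% and 54.9% and those of St8sia1-203 are 38.0% and 48.5%.

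The enzymes around the members were read from lists of the sialic acid and glycan pathways. Their values come from the reported fits alone. Other settings, among them the Y-linked covariate, date and leaving out a mouse, were read for the members only. Over all genes tested, 14.8% were called in unstimulated and 13.3% in stimulated cells. Of these, 43.4% and 20.8% were higher. The counts of called genes in the lists below stand beside these shares. Along the ganglioside pathway in unstimulated cells, Ugcg, which makes glucosylceramide (-0.52, SE 0.07, adjusted p = 0.000798), and B4galt5, which makes the lactosylceramide on which GM3 synthase acts (-1.05, SE 0.12, adjusted p = 0.000225), were lower in CtslΔTEC cells, as St3gal5 was. B4galnt1, which acts on GM3 and was picked for that step with its value seen, had a value of 0.13 (adjusted p = 0.466). Of the 10 tested genes of this list, 3 were lower and none higher, the other being Gm2a (-0.22, SE 0.07, adjusted p = 0.067), and the list's median was -0.16. In stimulated cells 2 of 10 were lower, among them Ugcg (-1.05, SE 0.16, adjusted p = 0.00106), and B4galt5 was not called (-0.19, adjusted p = 0.583). The B4galt5 difference shrank with stimulation, with an interaction of 0.87 (SE 0.21, adjusted p = 0.0375).

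Of 7 genes that make, activate or carry the sialic acid donor, Cmas, which makes CMP-sialic acid, was lower in unstimulated CtslΔTEC cells (-0.35, SE 0.06, adjusted p = 0.00361). In stimulated cells Cmas (-0.74, SE 0.13, adjusted p = 0.00242) and Gne, the entry enzyme of sialic acid synthesis (-0.62, SE 0.11, adjusted p = 0.00359), were both lower, and the interaction was called for Gne (-0.72, SE 0.13, adjusted p = 0.0136). Of 8 tested genes of sialic acid removal, 2 were higher in unstimulated CtslΔTEC cells, the membrane sialidase Neu3 (0.64, SE 0.15, adjusted p = 0.0163) and the lysosomal sialidase Neu1 (0.20, SE 0.06, adjusted p = 0.0602). The 2 lower ones were Glb1 (-0.31, SE 0.08, adjusted p = 0.0356) and Ctsa (-0.30, SE 0.10, adjusted p = 0.0707), partners of Neu1 in the lysosome. In stimulated cells none was higher and the lower ones were again Glb1 (-1.05, SE 0.13) and Ctsa (-1.08, SE 0.16), both with a called interaction (-0.74 and -0.78).

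Among enzymes that build the glycans to be sialylated, 1 of 13 tested O-glycan genes was higher in unstimulated CtslΔTEC cells, Galnt4 (1.07, SE 0.10, adjusted p = 6.34e-05), and 2 were lower, led by Galnt10 (-0.46, SE 0.08, adjusted p = 0.00251). In stimulated cells 3 of 13 were lower, Galnt12 (-0.96, SE 0.14), Galnt10 (-0.64, SE 0.12) and Gcnt1, the core 2 branching enzyme (-2.58, SE 0.67, adjusted p = 0.0252), which had 1 and 2 counts in the stimulated CtslΔTEC and 4 and 20 in the stimulated Ctsl+/+ libraries. Of 13 tested N-glycan genes, 1 was higher and 2 lower in unstimulated cells, and 4 were lower in stimulated cells. B4galt1, which adds the galactose that ST6GAL1 and the ST3GAL enzymes cap, was lower in both (-0.42, SE 0.07, and -1.04, SE 0.13). The selectin ligand fucosyltransferase Fut7 was tested and not called between the genotypes, and Fut4 was under the count filter.

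Of the tested sialic acid binding lectins and galectins, 2 of 9 were lower in unstimulated CtslΔTEC cells, among them Lgals1 (-1.58, SE 0.13, adjusted p = 2.59e-05), and 3 of 10 in stimulated cells. Of 11 glycoproteins known to carry sialic acid on T cells, 3 were higher in unstimulated CtslΔTEC cells, with Cd8a (2.75, SE 0.12) and Cd8b1 (2.22, SE 0.10) first, and 4 lower, with Cd44 (-1.01, SE 0.11) first. In stimulated cells 3 were higher and 3 lower. Cd8a and Cd8b1 also stand in the DP marker list.

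The genes whose log2 CPM followed the 3 leading members most closely over the 13 libraries were named as a description, since these libraries share genotype, date and stimulation. For St3gal5 they were P2ry14 (Pearson's r = 0.977), Apobec2 (0.976) and Tspan31 (0.970). For St3gal6 they were Tmem64 (0.920), Tmem243 (0.916) and Clint1 (0.911). For St8sia6 they were E330009J07Rik (0.985), Tbcel (0.984) and Dcun1d3 (0.983).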

How the data were processed

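M2 CD4SP thymocytes of 13 mice were sequenced, and titles and labels gave each sample's genotype, stimulation and mouse number. By the study's methods and the submitters' processing notes, the authors ran kallisto 0.48 on Ensembl 106 transcripts and deposited unnormalised estimated counts, TPM and effective lengths per transcript. The labels give polyA RNA, the study rRNA depletion, and the files do not settle this. Transcripts were paired with genes through GENCODE M21 (GRCm38), 116397 of 117497. The 1100 others held at most 0.461% of a library's counts. Counts were summed to genes and rounded.

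Genes were tested with edgeR 4.0.16 in R 4.3.3 (TMM, filterByExpr, quasi-likelihood test, Benjamini-Hochberg adjustment over all genes tested, called at adjusted p under 0.1). The unstimulated comparison used 9 libraries and all others a 4-group model of 13. SEs came from the log2 fold change and F. CPM values carry the 13-library factors. DESeq2 1.42.0 (the study's tool), other normalisations and filters, a length offset, date, mouse number, Y-linked transcripts and leaving out each mouse were alternatives. The tests were also run on simulated counts that held no sex or date effect, and the outcome is not reported here.

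All sialyltransferases were named. From other lists at most 4 called genes per genotype comparison, those with the smallest adjusted p, were named, and transcripts of members with a mean of 20% or more of the gene's TPM in a group. Some genes of these lists are not reported here. The members and lists were chosen with earlier results of these data known. St6galnac2 has 2 overlapping gene records, and the longer was used. Samples with the same mouse number in the 2 genotypes are different mice, and the number was not used to pair them. Depth limits the low members, with 25 to 53 counts of St3gal5 in unstimulated CtslΔTEC and 19 to 62 of St3gal3 in stimulated libraries.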

Additional observations from a re-analysis of the deposited data

Results flagged for a closer look

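St3gal6 in Ctsl+/+ mouse 2 lay at 4.90 log2 CPM, while the other 3 unstimulated Ctsl+/+ mice lay between 4.37 and 4.41. The gap was 0.923 of the group's range. This was 1 of 20 groups examined for an outlying mouse, and chance flags about 1 in 20.

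The genotype difference of St3gal4 changed between the conditions by -0.77 on the log2 scale (SE 0.15, edgeR adjusted p = 0.0157). It was lower in both stimulated CtslΔTEC mice than in both stimulated Ctsl+/+ mice, and the groups overlapped without stimulation. Its adjusted p stayed between 0.00138 and 0.0946 under all settings run. The genotype difference of St8sia1 changed by -0.55 (SE 0.17, adjusted p = 0.0934), and over the settings run its adjusted p ranged from 0.0558 to 0.265. The stimulated cells carry a date of their own in the file names, which cannot be told apart from stimulation.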

How the results depend on the processing

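The 5 counts of members called were recomputed under settings other than leaving out a mouse, which gave 45 counts, of which 36 stayed within 1.5 times the count reported. The 4 members called between the genotypes in unstimulated cells became 1 with Y-linked transcripts as a covariate, and 2 to 5 when a mouse was left out. The 4 called in stimulated cells became 2, St3gal4 and St3gal5, with upper-quartile factors, with at least 10 counts in every library, or at an adjusted p under 0.05, and 2 to 4 when a mouse was left out. The 2 called interactions became 1 under each of these 3 settings, with a transcript length offset, or with the Y-linked covariate, and 1 to 2 when a mouse was left out. The causes were not tested. The members called after stimulation numbered 8 to 9 in Ctsl+/+ and 7 to 8 in CtslΔTEC cells over all settings.

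St3gal5 was called between the genotypes, in both conditions, under every setting run. The replicate block, with mouse number as a factor, called 3 members in unstimulated cells and not St3gal1 (adjusted p = 0.197). Same-numbered mice correlated at -0.157 to 0.352 in their deviations from the group means, so the numbers were not taken as pairs, and no other call among the members changed. The stimulated groups share 1 mouse number, too few for a paired fit.

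Of the values of single members, 36 changed sign and none of these had been called. With library totals the interaction was -0.0429 for St3gal2, -0.0182 for St3gal5 and -0.0420 for St3gal6, and the response of St3gal4 in CtslΔTEC cells was -0.12. That response was -0.0289 with upper-quartile factors and -0.0327 with no count filter, and the St3gal2 interaction was -0.000604 with no filter. The St8sia6 interaction was 0.0169 with at least 10 counts in every library. With the length offset, the unstimulated difference of St3gal4 was 0.0894, the interaction was -0.41 for St3gal6 and 0.56 for St8sia6, and the response of St3gal2 in CtslΔTEC cells was 0.0531. With the Y-linked covariate the interaction was -0.0517 for St3gal2 and -0.17 for St3gal6. Leaving out a mouse gave interactions from -0.184 to 0.178 for St3gal2, -0.361 to 0.639 for St3gal5, -0.165 to 0.164 for St3gal6 and -0.415 to 0.283 for St8sia6, and stimulated differences from -0.101 to 0.522 for St3gal1. It gave responses from -0.314 to 0.0492 for St3gal2 in Ctsl+/+ cells, and in CtslΔTEC cells from -0.292 to 0.000769 for St3gal2 and -0.163 to 0.144 for St3gal4. The causes of these changes were not tested.

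In unstimulated cells 43.4% of the called genes were higher with TMM and 56.8% with library totals, and of the called interactions 18.8% with TMM and 29.5% with DESeq2. The 1943 genes called in unstimulated cells became 430 with the Y-linked covariate and 1051 with the replicate block, the 1898 in stimulated cells became 1127 when those 4 libraries were fitted alone, and the 856 interactions became 471 at an adjusted p under 0.05. Without 1 stimulated mouse, CtslΔTEC mouse 6, CtslΔTEC mouse 7, Ctsl+/+ mouse 5 or Ctsl+/+ mouse 6, the genes called in stimulated cells numbered 945, 1254, 966 and 2235, and the interactions 334, 615, 340 and 1227. The order of the members by CPM per kilobase was computed over lengths weighted by transcript TPM, which rebuilds the TPM order, so it is no check of that order. With DESeq2 the median response was 0.30 in Ctsl+/+ and 0.27 in CtslΔTEC cells. That fit also kept genes under the count filter, so these medians cover another set of genes than those of edgeR. Library totals moved the median response in CtslΔTEC cells to -0.21.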
